A study of Mus musculus with 14 samples.

Results

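The renin-angiotensin system makes the peptide hormone angiotensin II and breaks it down again. The 8 genes described here were chosen by symbol and by role: the enzyme renin (Ren1), the substrate angiotensinogen (Agt), angiotensin-converting enzyme (Ace), the angiotensin II receptors Agtr1a and Agtr1b, and 3 membrane peptidases that cut angiotensins, neprilysin (Mme), aminopeptidase A (Enpep) and aminopeptidase N (Anpep). All 8 are among the 24411 gene symbols of the count files, and 6 passed the filter on low counts that left 14300 genes for testing. Ren1 and Agtr1b did not pass, and are given by their counts.

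Kidneys of male C57/B6 mice of 8 weeks gave 4 libraries at day 0, 5 at day 1 and 5 at day 3 after renal ischemia/reperfusion injury (IRI), in which the blood supply of the kidney is stopped and restored. RNA of the whole kidney was sequenced, so that all its cell types were counted together. No genotype, drug or other treatment is given for any of the 3 groups, and whether the day 0 mice had a sham operation is not given in the sources used here. The labels do not say that replicates are separate mice, so that p-values measure the spread between these libraries, which may be partly technical.

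Renin, made by granular cells of the afferent arteriole, cleaves angiotensinogen to angiotensin I, and Ace, on endothelium and on the brush border of the proximal tubule, converts this to angiotensin II. Angiotensin II acts through its receptors on vessels, mesangium and tubules to constrict vessels and to retain sodium. The membrane aminopeptidases shorten angiotensin II from its amino end in successive steps, and neprilysin cuts inside the chain of angiotensin I and of many other peptides.

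The promoter windows of Agt, Ace, Enpep and Anpep are shown because Agt was the member that rose while Ace fell, and because Enpep and Anpep moved together from library to library. Each window holds the 250 bases before the RefSeq start site (GRCm38.p6), read 5′ to 3′ along the gene's strand. For Ace, which has 2 RefSeq windows, the one at the 5′ end of the gene is shown, and the other (chr11:105974939-105975188) held a CCAAT box at -25 on the other strand and no TATA or GC box. Capitals mark matches, on either strand, to the TATA box letters TATAAA, the CCAAT box letters CCAAT and the GC box letters GGGCGG, and these matches are a description and not evidence of binding.
Agt, chr8:124569707-124569956, minus strand: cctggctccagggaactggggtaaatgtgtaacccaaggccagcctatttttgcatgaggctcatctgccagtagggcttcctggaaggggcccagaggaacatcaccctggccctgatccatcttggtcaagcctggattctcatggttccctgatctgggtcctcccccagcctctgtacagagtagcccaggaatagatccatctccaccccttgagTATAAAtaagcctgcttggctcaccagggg
Ace, chr11:105967698-105967947, plus strand: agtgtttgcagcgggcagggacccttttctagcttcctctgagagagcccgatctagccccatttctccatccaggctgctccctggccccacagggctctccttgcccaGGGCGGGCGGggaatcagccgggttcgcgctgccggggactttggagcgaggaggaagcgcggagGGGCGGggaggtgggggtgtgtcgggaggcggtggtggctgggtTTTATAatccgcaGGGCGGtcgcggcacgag
Enpep, chr3:129332750-129332999, minus strand: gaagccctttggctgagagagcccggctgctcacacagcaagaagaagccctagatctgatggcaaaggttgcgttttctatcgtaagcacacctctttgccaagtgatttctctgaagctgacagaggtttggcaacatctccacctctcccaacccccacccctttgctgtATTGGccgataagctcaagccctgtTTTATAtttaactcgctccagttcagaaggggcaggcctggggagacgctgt
Anpep, chr7:79848211-79848460, minus strand: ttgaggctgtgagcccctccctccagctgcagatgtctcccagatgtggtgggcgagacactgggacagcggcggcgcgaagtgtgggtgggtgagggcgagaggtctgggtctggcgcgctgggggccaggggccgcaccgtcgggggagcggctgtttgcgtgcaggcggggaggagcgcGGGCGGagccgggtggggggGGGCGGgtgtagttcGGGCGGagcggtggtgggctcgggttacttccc

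Counted from the start site, with the motif's first base in the printed direction, the TATA box letters stood at -30 in the Agt window, at -31 on the other strand in the Ace window and at -52 on the other strand in the Enpep window, and the Anpep window held none. The Ace window held 4 matches to the GC box, at -140, -136, -75 and -18, of which the first pair overlap, and the Anpep window held 3, at -68, -48 and -33. The Enpep window held 1 CCAAT box, at -77 on the other strand. Over the 32851 RefSeq windows of the same length, 12.4% held the TATA box letters, 33.8% the CCAAT box and 32.7% the GC box. The STAT letters TTCNNNGAA, present in 7.02% of the windows, were found at -172 in Agt and at -141 in Enpep. No match in these 4 windows was found to the full HNF1 palindrome (0.00913% of the windows) or its first part GTTAAT (6.43%), to the AP-1 letters TGANTCA (6.75%), to the CRE letters TGACGTCA (1.55%) or to the GATA letters AGATAA (9.99%). RefSeq windows were matched for 7 of the 8 members, Agtr1a being the exception.

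In GENCODE M21 (GRCm38) the members lie at chr1:133350510-133360325 (Ren1, plus strand), chr8:124556534-124569706 (Agt, minus), chr11:105967945-105989964 (Ace, plus), chr13:30336441-30382867 (Agtr1a, plus), chr3:20314473-20367177 (Agtr1b, minus), chr3:63241537-63386030 (Mme, plus), chr3:129269175-129332720 (Enpep, minus) and chr7:79821803-79861059 (Anpep, minus). The printed Anpep window lies inside its GENCODE gene, downstream of the 5′ end given there. The antisense gene Gm11651 overlaps Ace, and the unstranded count of Ace was below its strand count (5463 against 6475 in day 0 replicate 1). Gm48161 overlaps Agtr1a and Gm44974 overlaps Anpep on the same strand, and the pseudogene Gm42628 overlaps Enpep on the other strand.

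Reads on genes ranged from 12485579 to 20476979 per library, and the members together took 0.107% to 0.149% of them at day 0, 0.0336% to 0.0606% at day 1 and 0.0257% to 0.0769% at day 3. Levels are given as CPM, the reads on a gene relative to all reads on genes, scaled by TMM, which corrects for library composition. The files of 2 libraries of day 1 (replicates 1 and 2) and 3 of day 3 (replicates 1 to 3) carry a 3-digit number in their names and all others a 1-digit number, which the labels do not explain. This number format was treated as a possible batch, and because all 4 day 0 libraries have 1-digit numbers, a format effect cannot be told apart from the day where 3-digit libraries are compared with day 0. Day 0 replicate 4 stood apart from the other day 0 libraries: 388 of the 14300 genes were above 2 times the highest of these and 177 below their lowest divided by 2. In it the urothelial markers Upk1a, Upk1b, Upk2, Upk3a and Krt5 were 3.63 to 7.01 times the highest other day 0 library, and the fat markers Plin1 and Cidec stood at 4.35 and 6.41 CPM against at most 0.0632 and 0.379 CPM. Sums of such markers were high in other libraries too, though a single marker made up most of some sums. The 5 urothelial markers summed to 45.4 CPM in day 0 replicate 4 and to 91.7 CPM in day 1 replicate 2. In day 3 replicate 4 they summed to 34.6 CPM, and elsewhere to at most 12.7 CPM. At day 3 the highest Krt5 was 28.6 CPM, while Upk1a, Upk1b, Upk2 and Upk3a were at most 4.41, 2.96, 0.297 and 2.72 CPM. The 3 fat markers summed to 18.7 CPM in day 0 replicate 4. Their sum was 34.3 and 21 CPM in day 1 replicates 1 and 2 (the whole 3-digit group of that day). It was 16.5 and 22.6 CPM in day 3 replicates 4 and 5 (the whole 1-digit group of that day). Elsewhere it was at most 5.89 CPM. After day 0 Cidec made up most of the high fat sums, at up to 32.6 CPM at day 1 and 20.5 CPM at day 3. Adipoq, at up to 7.98 CPM at day 0, reached at most 2.45 CPM at day 1 and 0.0672 CPM at day 3. Plin1 was at most 1.82 CPM at day 1 and 2.13 CPM at day 3.

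Ren1, whose product starts the cascade, was listed at 0 reads in all 14 libraries, in the unstranded column and on both strands. The 0 cannot be read as absence of renin RNA. The table also has an entry for Ren2, the duplicate renin gene of some mouse strains, likewise at 0 in every library, while GENCODE M21 has 0 Ren2 entries on its chromosomes. STAR does not count reads that fall on more than 1 gene or place, and whether this removed renin reads was not tested. In all, 4732 of the 24411 symbols (19.4%) were at 0 in every column of every library. Akr1b7, an aldo-keto reductase known from renin cells, had a mean of 2.36 CPM at day 0, 4.8 CPM at day 1 and 3.76 CPM at day 3.

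Agt, the only precursor of the angiotensins and mainly a liver product, was expressed at a low level and rose after IRI. Its level was 0.46, 0.706, 0.695 and 1.57 CPM in replicates 1 to 4 of day 0, from 8 to 26 reads. At day 1 it was 3.34, 7.59, 1.5, 0.686 and 2.49 CPM in replicates 1 to 5, and at day 3 it was 11, 1.69, 6.09, 9.48 and 4.63 CPM. The day 1 libraries overlapped those of day 0, and every day 3 library was above every day 0 library. The log2 fold change was 1.87 (SE 0.68) at day 1, with an adjusted p of 0.0381 by edgeR's quasi-likelihood test, and 2.93 (SE 0.69) at day 3, with an adjusted p of 0.00608. As fitted folds these are 3.65 and 7.62. The day 1 call did not hold without replicate 1, 2 or 3 of day 0 (log2 fold changes 1.66, 1.78 and 1.78, adjusted p 0.102, 0.089 and 0.0897 by edgeR) or without replicate 1, 2 or 5 of day 1 (1.81, 1.22 and 1.94, adjusted p 0.0579, 0.113 and 0.0506). It also did not hold in the 1-digit libraries of day 1 (0.83, adjusted p 0.304) or with number format as a term (1.38, adjusted p 0.115). The summed fat markers were highest in the libraries with the highest Agt of day 0 (replicate 4) and of day 1 (replicates 1 and 2). At day 3 Agt was 11, 1.69 and 6.09 CPM in the 3-digit libraries beside 5.85, 0.507 and 1.29 CPM of fat markers. In the 1-digit libraries of that day Agt was 9.48 and 4.63 CPM beside 16.5 and 22.6 CPM. Against day 0, Agt was higher by 2.86 in the 3-digit libraries of day 3 (adjusted p = 0.00381, edgeR). It was higher by 3.03 in the 1-digit libraries (adjusted p = 0.0022, edgeR). In the 3-digit libraries a format effect cannot be told apart from the day. The part of fat in the Agt level was not tested.

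**Figure D1:**
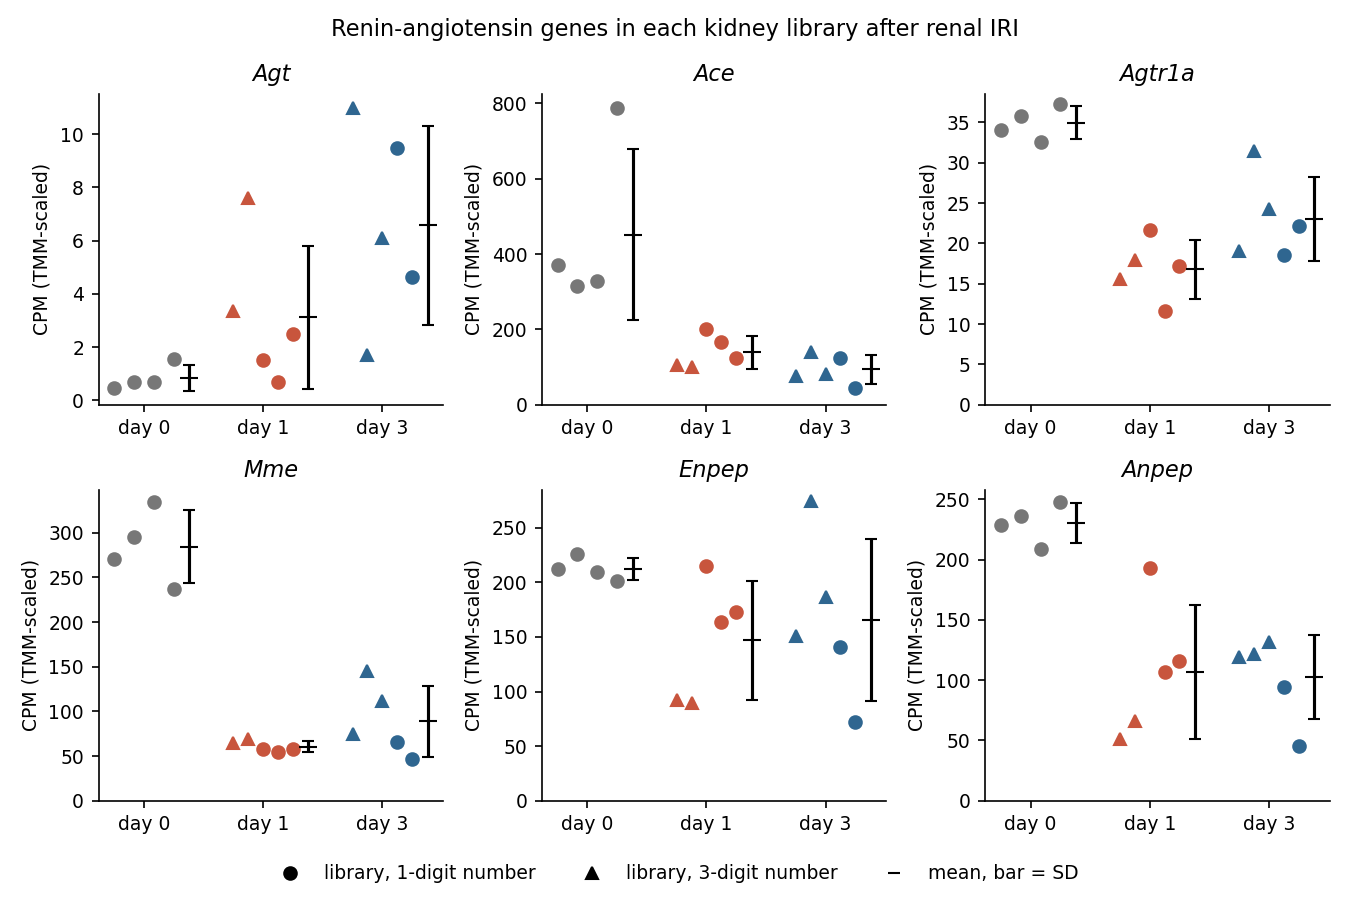
CPM of the 6 tested members in each of the 14 libraries at day 0, 1 and 3 (circles, 1-digit number; triangles, 3-digit number), with the mean and SD of each day in black. Ace at day 0 has 1 library at 789 CPM against 314 to 372 CPM in the others. At day 1 the 3-digit libraries have lower means than the 1-digit libraries for Ace, Enpep and Anpep, and higher means for Agt and Mme. Between the formats at day 1 edgeR called only Enpep and Anpep.

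Ace, the enzyme that forms angiotensin II and also inactivates bradykinin, fell at both times. It was 372, 314, 328 and 789 CPM in replicates 1 to 4 of day 0, then 105, 99.4, 202, 167 and 123 CPM at day 1 and 77.2, 139, 82.5, 125 and 45 CPM at day 3. All libraries after IRI were below all day 0 libraries. The log2 fold change was -1.70 (SE 0.35, adjusted p = 0.00197, edgeR) at day 1 and -2.26 (SE 0.35, adjusted p = 0.000467) at day 3, or 3.24-fold and 4.8-fold lower. Without day 0 replicate 4, which held the highest Ace level, the values were -1.28 (adjusted p = 0.00848) and -1.85 (adjusted p = 0.00147). The part that the other tissue seen in that library has in its Ace level was not tested. In bulk RNA, fewer cells of a type and less RNA per cell cannot be told apart, for Ace and for the genes that follow.

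Agtr1a, which encodes the main angiotensin II receptor of the rodent kidney, fell less. Its libraries lay at 34.1, 35.8, 32.6 and 37.3 CPM at day 0, at 15.6, 17.9, 21.7, 11.6 and 17.2 CPM at day 1, and at 19, 31.4, 24.3, 18.6 and 22.1 CPM at day 3. No library after IRI reached the lowest of day 0. The log2 fold change was -1.06 (SE 0.18, adjusted p = 0.000662, edgeR) at day 1, a fold of 2.08, and -0.60 (SE 0.18, adjusted p = 0.0221) at day 3, a fold of 1.51. The day 3 call was lost without replicate 2 or 4 of day 0 (log2 fold changes -0.59 and -0.57, adjusted p 0.0538 and 0.0569), without replicate 1 or 4 of day 3 (-0.53 and -0.53, adjusted p 0.055 and 0.0548), in the 3-digit libraries alone (log2 fold change -0.49, adjusted p 0.0772) and with total counts in place of TMM (-0.45, adjusted p 0.0912). Agtr1b, the second rodent receptor gene, known best from the adrenal and the pituitary, had 1, 2, 1 and 2 reads at day 0, 0, 0, 0, 1 and 4 reads at day 1, and 0, 1, 1, 0 and 4 reads at day 3. A count of 0 allows up to 3 reads, or 0.136 to 0.241 CPM depending on the library, for counting error only, so that differences in Agtr1b were not detectable at this depth.

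Mme, which encodes neprilysin, fell most at day 1 among the members. It was 271, 295, 334 and 237 CPM at day 0, a narrow 64.1, 69.1, 57.4, 54 and 58.2 CPM at day 1, and 74.7, 145, 112, 65.8 and 46.2 CPM at day 3. The days after IRI did not overlap day 0, and the day 3 libraries spread over 3.15 times from lowest to highest. The log2 fold change was -2.23 (SE 0.26, adjusted p = 4.06e-05, edgeR) at day 1, or 4.69-fold lower, and -1.68 (SE 0.26, adjusted p = 0.000396) at day 3, or 3.2-fold lower. At day 1 its fold change ranked 209 from the lowest among the 14300 genes tested.

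Anpep, aminopeptidase N, fell about as much at both times. It was 229, 236, 209 and 248 CPM at day 0, 51, 65.7, 193, 107 and 116 CPM at day 1, and 119, 122, 132, 93.9 and 45.3 CPM at day 3. All libraries after IRI were below day 0, with day 1 replicate 3 close to it. The log2 fold change was -1.12 (SE 0.34, adjusted p = 0.0182, edgeR) at day 1 and -1.17 (SE 0.34, adjusted p = 0.0185) at day 3, or 2.17-fold and 2.25-fold lower. With number format as a term the day 3 value was -1.02 (adjusted p = 0.0811, edgeR).

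Enpep, aminopeptidase A, which forms angiotensin III from angiotensin II, did not pass the test at either time. Its libraries were at 212, 226, 210 and 201 CPM at day 0, at 92.3, 89.9, 215, 164 and 173 CPM at day 1, and at 151, 275, 187, 141 and 71.8 CPM at day 3. At each time after IRI 1 library lay inside or above the day 0 range and the others below it. The log2 fold change was -0.53 (SE 0.32, adjusted p = 0.194, edgeR) at day 1 and -0.36 (SE 0.32, adjusted p = 0.400) at day 3.

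In all, 4 of the 6 tested members were lower and 1 higher at day 1, where 18.7% of all genes tested were lower and 23.3% higher. The counts were the same at day 3, with 13.8% of all genes lower and 19.5% higher. Both comparisons use the same day 0 libraries. The median log2 fold change over the 6 tested members was -1.09 at day 1 and -0.88 at day 3, against 0.01 and 0.05 over all genes tested. Between day 3 and day 1 edgeR called 0 members, and DESeq2 0, against 7.39% of all genes lower and 8.52% higher in edgeR, and 2 members had an unadjusted p under 0.05. Agtr1a (0.46) and Mme (0.55) had an unadjusted p of 0.0185 and 0.0379 there, with adjusted p of 0.0833 and 0.131, and both means were higher at day 3. Agt differed by 1.06 (adjusted p = 0.222) and Ace by -0.57 (adjusted p = 0.25). Calls between these days appeared for Agt without day 1 replicate 2 (1.71, adjusted p = 0.0405, edgeR), for Mme without day 3 replicate 5 (0.69, adjusted p = 0.027) and for Agtr1a with total counts (0.63, adjusted p = 0.0385).

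**Figure D2:**
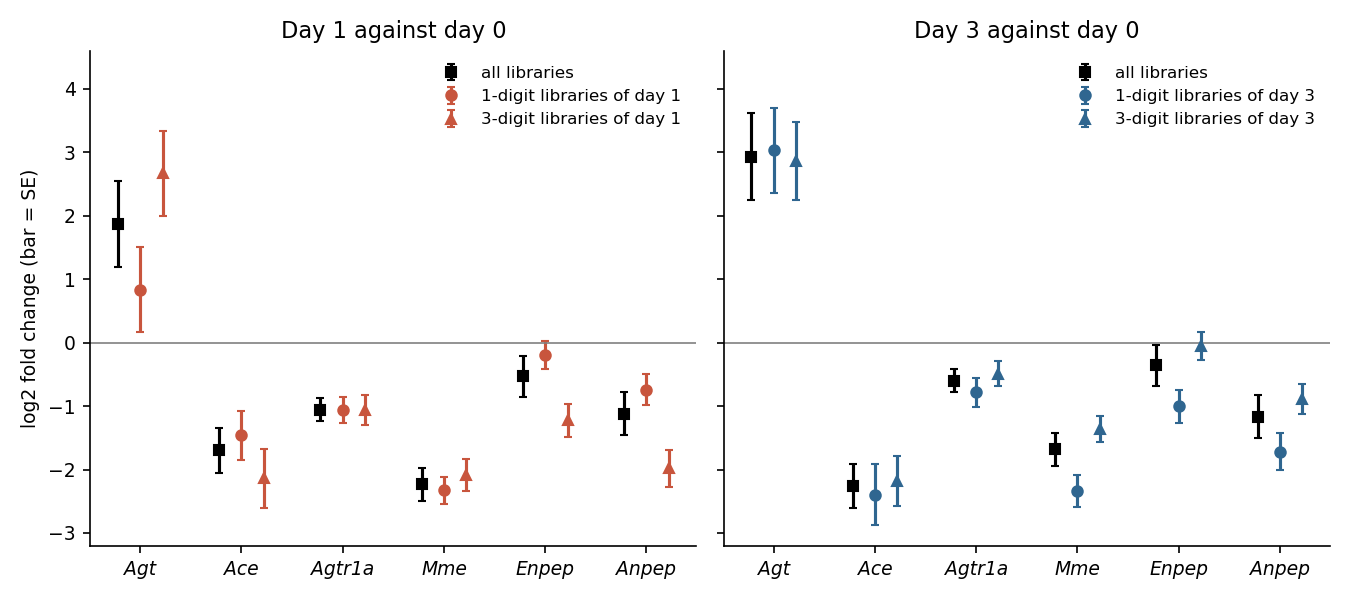
Log2 fold change against day 0, with its SE, of the 6 tested members at day 1 and day 3, over all libraries of the day (squares) and in its 1-digit (circles) and 3-digit (triangles) libraries. Ace, Agtr1a, Mme and Anpep lie below 0 and Agt above 0 in every set, and Enpep lies nearest to 0 in the 1-digit libraries of day 1 and the 3-digit libraries of day 3.

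Within number formats, Enpep and Anpep behaved unlike the pooled values. At day 1 the mean of Enpep was 91.1 CPM in the 3-digit libraries (n = 2) and 184 CPM in the 1-digit libraries (n = 3), a log2 fold change of -1.01 (SE 0.27, adjusted p = 0.0124, edgeR). At day 3 the order turned, with 205 CPM among 3-digit libraries (n = 3) against 106 CPM among 1-digit libraries (n = 2), a log2 fold change of 0.94 (SE 0.27, adjusted p = 0.0314). Anpep went the same way, with 58.3 against 138 CPM at day 1 (-1.24, SE 0.29, adjusted p = 0.00612) and 124 against 69.6 CPM at day 3 (0.84, SE 0.29, adjusted p = 0.0575).

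The difference of the format effects between the days was 1.96 (SE 0.38) for Enpep and 2.08 (SE 0.41) for Anpep, each with an adjusted p of 0.00488 by edgeR. At day 3 Mme was also higher in the 3-digit libraries, at 111 against 56 CPM (log2 fold change 0.98, SE 0.24, adjusted p = 0.0187), and at day 1 it was 66.6 against 56.6 CPM (0.24, adjusted p = 0.457). Agt at day 1 stood at 5.46 against 1.56 CPM in the same order of formats, without passing the test (1.84, adjusted p = 0.0588). Of the 6 tested members, 2 were called between the formats at day 1, a share near the 35.0% of all genes tested, 2 at day 3 (18.5% of all genes), and 2 for the difference of the days (17.6%).

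These calls within a day rest on few libraries. For Enpep the day 1 value was -1.05 without replicate 1 (adjusted p 0.0609, edgeR) and -0.99 without replicate 2 (0.0911), and for Anpep it was -1.09 without replicate 1 (0.0583). At day 3 the Enpep value was 0.67 without replicate 2 (0.0999), 1.01 without replicate 3 (0.062) and 0.52 without replicate 5 (0.274), and the Mme value was 0.73 both without replicate 2 (0.055) and without replicate 5 (0.18). Anpep at day 3 passed the test without day 1 replicate 3 (0.84, adjusted p 0.0322) or day 3 replicate 4 (1.46, 0.00919), with total counts (0.90, 0.0398) and in DESeq2 (0.0239). Agt at day 1 passed without day 3 replicate 1 (1.84, adjusted p 0.0396) or 2 (1.84, 0.0228), with total counts (2.06, 0.0356) and in DESeq2 (0.0369), and the Mme difference between the days passed without day 3 replicate 1 (0.96, 0.0244). The difference between the days kept its call for Enpep and Anpep without any 1 of the 10 libraries after IRI, with adjusted p of at most 0.0254 and 0.0313.

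**Figure D3:**
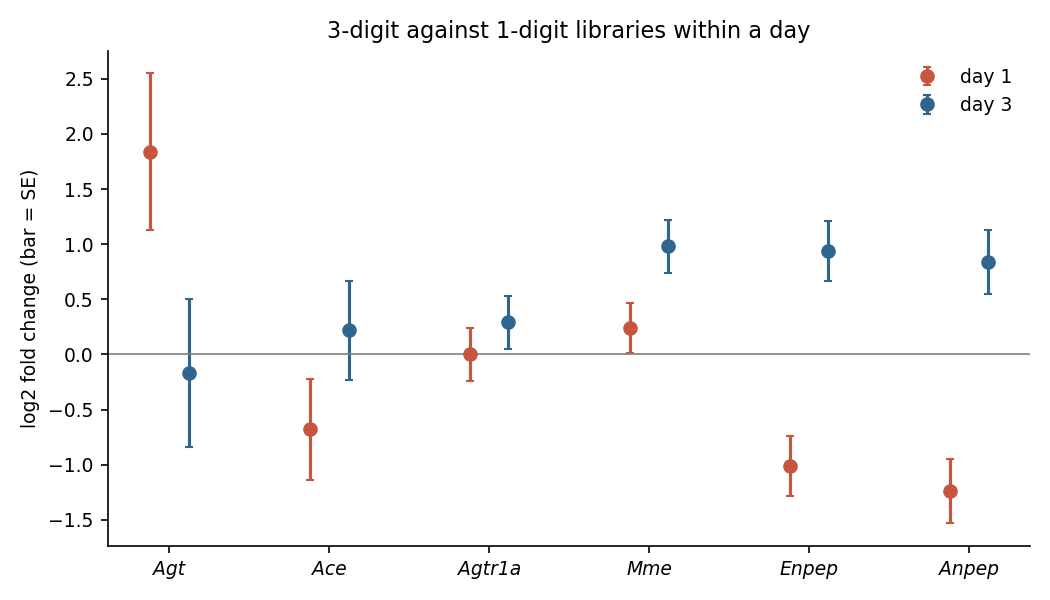
Log2 fold change between 3-digit and 1-digit libraries within day 1 and within day 3, with its SE, for the 6 tested members. Enpep and Anpep are below 0 at day 1 and above 0 at day 3, while Agtr1a is within 1 SE of 0 at day 1.

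Against day 0, the 3-digit libraries of day 1 gave a call for all 6 tested members (41.6% of all genes called), Enpep included at -1.22 (adjusted p = 0.00291, edgeR), and the 1-digit libraries of day 1 for 4 of them (58.5%), with Enpep at -0.20 (adjusted p = 0.445). The 1-digit libraries of day 3 gave a call for all 6 (53.7%), with Enpep decreased by 49.9% (adjusted p = 0.00628), and the 3-digit libraries of day 3 for 4 (32.4%), with Enpep at -0.05 (adjusted p = 0.881). Ace, Mme and Anpep were lower than at day 0 in each of these 4 comparisons. From day 1 to day 3, the 1-digit libraries gave calls for Agt (2.20 higher), Enpep (-0.79) and Anpep (-0.99). These are 3 of the 6 tested members, against 32.0% of all genes tested. The 3-digit libraries gave calls for Enpep (1.17) and Anpep (1.09), 2 of the 6 against 13.9%. Enpep and Anpep thus had opposite signs in the 2 formats.

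Proximal tubule markers turned with the formats as well. Of 15 marker genes, 9 were lower and 0 higher in the 3-digit libraries at day 1 (median log2 fold change -1.51), and 7 were higher and 0 lower there at day 3 (median 1.14). The difference of the format effects between the days was called higher for 11 of the 15 and lower for 0, with a median of 2.56 beside the 1.96 of Enpep and the 2.08 of Anpep. Of the 6 other brush border peptidases, 3 were lower in the 3-digit libraries at day 1 and 2 higher at day 3, and the difference was called higher for 3 (median 2.43): Ggt1 (2.37, adjusted p = 0.00149, edgeR), Dpep1 (2.49, adjusted p = 0.0203) and Xpnpep2 (4.84, adjusted p = 0.00127). Thick limb markers had 2 of 3 and collecting duct markers 2 of 4 higher in the 3-digit libraries at day 3 (medians 1.47 and 0.89), and the difference between the days was called higher for 2 of 3 thick limb markers (median 1.31) and 0 of 4 collecting duct markers. At day 3 the 3-digit libraries also had 2 of 5 podocyte, 5 of 8 endothelial and 4 of 9 renin cell and smooth muscle markers lower. Of 10 macrophage markers, 5 were higher there and 1 lower. At day 1 they had 4 of 9 renin cell and smooth muscle markers higher and 1 lower, and 2 of 5 urothelial markers higher. Podocyte and endothelial markers each had 2 higher and 2 lower at day 1, and 1 of 10 macrophage and 1 of 4 collecting duct markers were higher. The difference between the days was called lower for 5 of 9 renin cell and smooth muscle markers (1 higher) and 4 of 8 endothelial markers. It was lower for 2 of 5 podocyte (1 higher) and 2 of 10 macrophage markers (2 higher). The summed level of the 15 proximal tubule genes, all of them detected, was 61300 to 62700 CPM at day 0, of which Kap alone averaged 29700 CPM, and at day 1 it was 37700 and 24500 CPM in the 3-digit libraries against 66000, 51000 and 52600 CPM in the 1-digit libraries. At day 3 the 3-digit libraries had 15700, 31400 and 15700 CPM, and the others 16000 and 12900 CPM. Against day 0, 5 of the 15 were lower and 0 higher at day 1, and 9 lower and 0 higher at day 3, with a median log2 fold change of -0.72 and -1.53. Their part in the members' values was not tested. Of 6 tubular injury markers, 2 were higher and 0 lower with 3 digits at day 1, and 1 was lower and 0 higher at day 3. The difference was called lower for 2 and higher for 0 (median -2.32). At day 1 these markers summed to 30000 and 35200 CPM with 3 digits, beside 7240, 13600 and 14800 CPM with 1 digit. At day 3 the sums were 31400, 5850 and 19800 CPM, beside 43200 and 35000 CPM. Whether injury level underlies the format differences was not tested. Enpep and Anpep had a Pearson correlation of log2 CPM of 0.88 over the 14 libraries and of 0.9 over the deviations from the day means, as a description of libraries that share their depth and their cell mixture.

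The other brush border peptidases were 6 genes, of which 3 were lower at day 1 and 3 at day 3, none being higher at either time. Meprin beta (Mep1b) had -4.21 (SE 0.96, adjusted p = 0.00356, edgeR) at day 1 and -5.45 (SE 1.01, adjusted p = 0.00144) at day 3. Its libraries lay at 268 to 307 CPM at day 0, 5.09 to 19.9 CPM at day 1 and 0.661 to 29.7 CPM at day 3. Meprin alpha (Mep1a) had -1.40 (adjusted p = 0.00509) at day 1 and -2.50 (adjusted p = 0.000207) at day 3. Dpp4, dipeptidyl peptidase IV, was lower at day 1 (-1.31, adjusted p = 0.00106) and Ggt1, gamma-glutamyltransferase, at day 3 (-1.91, adjusted p = 0.00169). Their log2 fold changes spanned -4.21 to 0.20 at day 1, then -5.45 to -0.38 at day 3, with medians of -0.92 and -1.51 beside the members' -1.09 and -0.88. The summed level of these 6 was 4820 to 4990 CPM at day 0, 1570 to 3500 CPM at day 1 and 620 to 2180 CPM at day 3.

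Of 22 other genes of angiotensin and kinin metabolism, 15 were tested. At day 1, 3 were higher and 2 lower, where 23.3% of all genes tested were higher and 18.7% lower, with a median log2 fold change of -0.10 against 0.01 over all genes. Bdkrb2, the constitutive bradykinin receptor, was higher by 1.62 (SE 0.48, adjusted p = 0.0158, edgeR). Its levels were low, at 1.89 CPM against 0.61 CPM at day 0 (2 to 17 reads there). The intracellular peptidases Dpp3 (0.38, adjusted p = 0.0491) and Prep (0.36, adjusted p = 0.0313) were higher by less. Lnpep, the insulin-regulated aminopeptidase, was lower (-0.93, SE 0.12, adjusted p = 0.000113), as was Mas1, a receptor for a shortened angiotensin, at low levels of 0.594 CPM against 1.51 CPM at day 0 (-1.36, adjusted p = 0.0354).

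At day 3, 1 of the 15 was higher and 2 were lower, beside 19.5% and 13.8% of all genes tested, with a median of -0.07 against 0.05. Prcp, prolylcarboxypeptidase, which removes the last residue of angiotensin II, was the higher gene (0.65, SE 0.23, adjusted p = 0.042, edgeR). Mas1 (-2.47, adjusted p = 0.0028) and Rnpep, aminopeptidase B (-0.98, adjusted p = 0.0158), were the lower ones. From day 1 to day 3, where 8.52% of all genes were higher and 7.39% lower, Lnpep (1.17, adjusted p = 0.000218) and Prcp (0.83, adjusted p = 0.0194) were higher and Klk1, tissue kallikrein, lower (-1.07, adjusted p = 0.0252).

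The 7 genes that did not pass the filter include the chymases and other mast cell proteases: Mcpt4 was at 0 in all libraries, and Cma1, Ctsg and Cpa3 had at most 3 reads in any library. Agtr2, the other angiotensin II receptor, had up to 8 reads at day 0 and at most 1 later, Bdkrb1 at most 2, and Mrgprd 0. How many of the tested pathway genes are called depended on the libraries used. Leaving out 1 library at a time gave 2 to 6 calls at day 1, 2 to 6 at day 3 and 1 to 4 between the days. The share of all genes called then ran from 32.9% to 45.9%, from 23% to 39.7% and from 8.9% to 23.5%. The number at day 1 was 2 without day 0 replicate 2 or 4, and 3 without day 0 replicate 1 or 3, day 1 replicate 1, 2 or 4, or day 3 replicate 3. At day 3 it was 6 without day 3 replicate 2, and between the days it was 1 without day 1 replicate 4 or 5 or day 3 replicate 4.

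**Figure D4:**
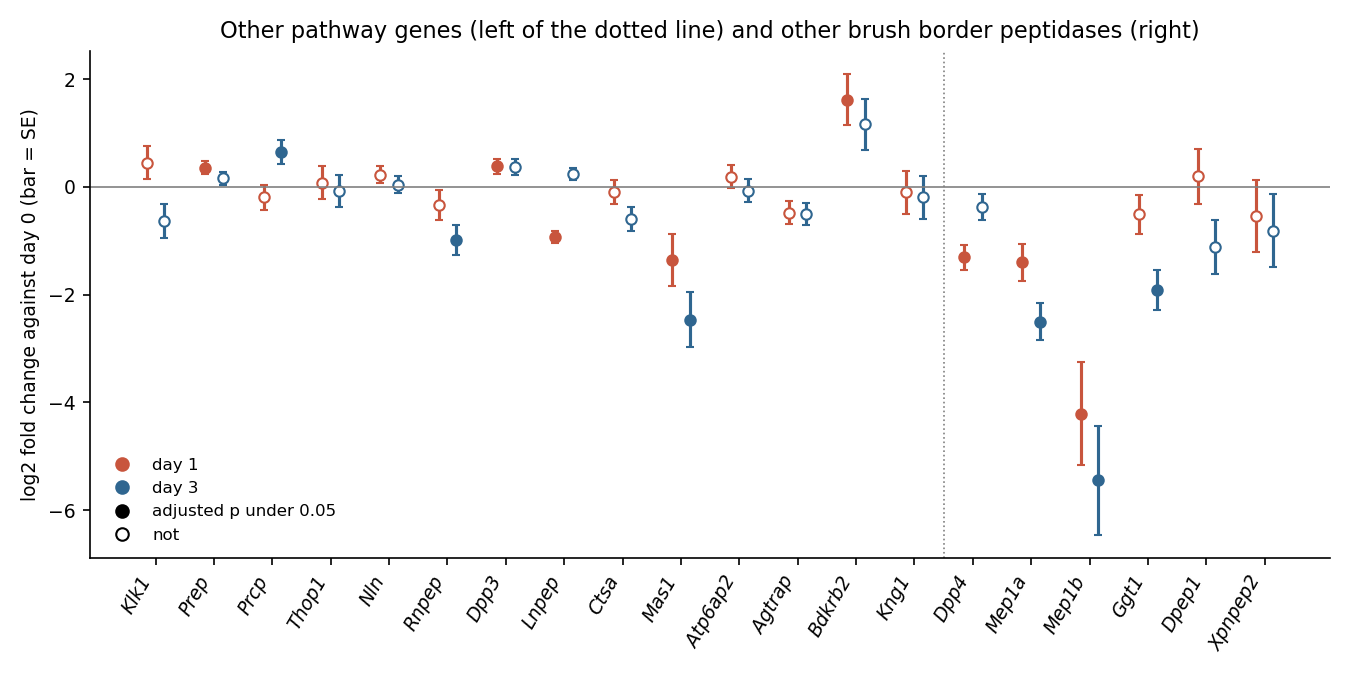
Log2 fold change against day 0 (bar, SE) of 14 of the 15 tested genes of angiotensin and kinin metabolism and of the 6 other brush border peptidases at day 1 and day 3; filled points have an adjusted p under 0.05. Mas1, Mep1a and Mep1b are below 0 with filled points at both times.

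Divided by the length of their exons, the members had this order at day 0: Ace at 85.3 CPM per kb (range 59.4 to 149), Anpep at 55.7 (50.6 to 59.9), Enpep at 45.1 (42.6 to 48), Mme at 24.6 (20.5 to 28.9), Agtr1a at 12.5 (11.7 to 13.4), Agt at 0.454 (0.243 to 0.831) and Agtr1b at 0.0418. The ranges of Ace and Anpep overlapped, and no other neighbours did. At day 1 the order was Enpep (31.2 CPM per kb), Ace (26.3), Anpep (25.7), Agtr1a (6.03), Mme (5.25) and Agt (1.65). The ranges of the first 3 overlapped, as did those of Agtr1a and Mme. At day 3 Enpep (35.1), Anpep (24.8) and Ace (17.8) overlapped as neighbours, and so did Ace with Agtr1a (8.29), Agtr1a with Mme (7.69) and Mme with Agt (3.48). With the longest transcript in place of all exons, Mme stood above Agtr1a at day 3.

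**Figure D5:**
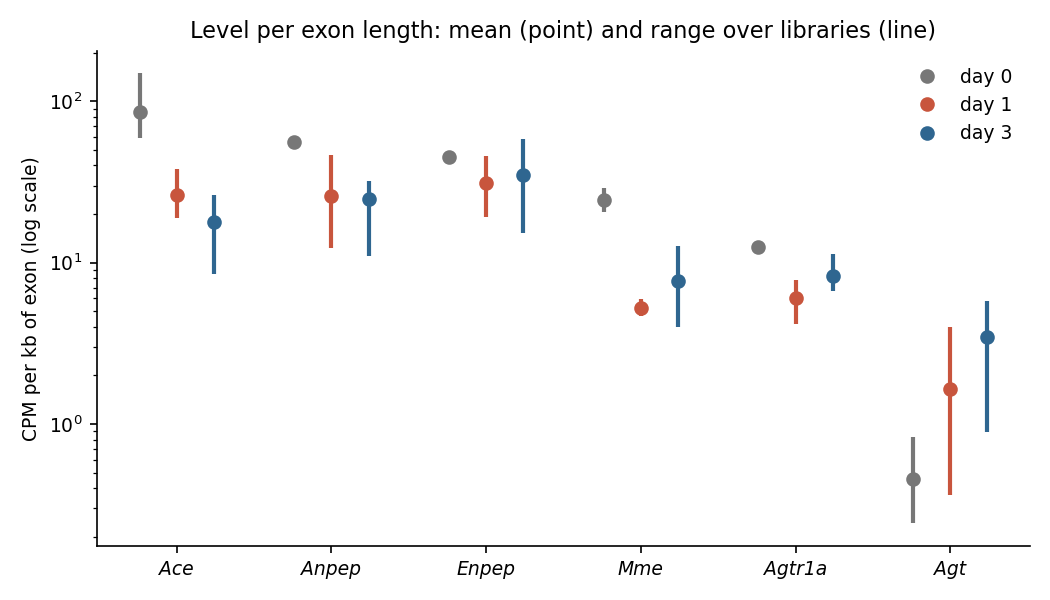
Mean CPM per kb of exon (points, log axis) and range over libraries (lines) of the 6 tested members at each day. Ace is first at day 0 at 85.3 CPM per kb and Enpep is first at day 1 and day 3, at 31.2 and 35.1, with overlapping ranges among Enpep, Ace and Anpep at day 1.

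The genes whose log2 CPM was most like that of a member over the 14 libraries, among 13325 genes with a mean of at least 1 CPM, were as follows, by Pearson correlation. For Agt they were Pir (0.949), Acsf2 (0.94) and Slpi (0.938), and for Ace they were Lin7a (0.956), 9030619P08Rik (0.95) and Nlrc4 (0.945). For Agtr1a they were Add3 (0.971), Pclo (0.959) and Mtus1 (0.952), and for Mme they were Osbpl8 (0.99), the peptide transporter Slc15a2 (0.983) and Fam107a (0.973). Enpep was most like Entpd8 (0.977), the sodium-coupled transporter Slc5a11 (0.971) and Qdpr (0.97), and Anpep like Col4a4 (0.975), Pm20d1 (0.971) and the fructose transporter Slc2a5 (0.966). These are the highest of many values over libraries that share their days, depth and cell mixture.

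Markers of other cells changed as well. Of 9 genes of renin cells, vascular smooth muscle and mesangium, 5 were higher and 1 lower at day 1 and 4 were higher at day 3, with summed levels of 98.4 to 130 CPM at day 0, 218 to 548 CPM at day 1 and 242 to 1050 CPM at day 3. All 5 neutrophil markers tested and 5 of 6 tubular injury markers were higher at both times. Day 1 and day 3 gave 2 and 2 lower of 3 thick limb, 1 and 2 lower of 4 collecting duct, 0 and 1 higher of 5 podocyte, 2 and 0 higher of 8 endothelial (2 lower at day 1), and 3 and 4 higher of 10 macrophage markers (1 lower each). Kit, the only mast cell marker of 4 that was tested, was lower at both times, 1 of 5 urothelial markers was lower at day 3, and the 2 fat markers and the 1 adrenal marker tested were not called. The 3 lymphocyte markers did not pass the filter. The part of these cells in the members' values was not tested.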

How the data were processed

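Total RNA of mouse kidneys was extracted with TRIzol and sequenced from Illumina TruSeq libraries. The submitters' processing notes name Trimmomatic, STAR and mm10, and versions and annotation are not given in the sources used here. The authors deposited, for each of the 14 libraries, STAR's raw counts of reads on each gene, without regard to strand and by strand. The strand column used here held 98.5% to 98.7% of the strand-assigned reads. Entries naming no gene (29.0% to 38.3% of reads) were left out.

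The analysis used edgeR 4.0.16 and limma 3.58.1 under R 4.3.3. Genes were filtered by filterByExpr with the days as groups, scaled by TMM, and compared by edgeR's quasi-likelihood test in a fit of all libraries with day as its term. P-values were adjusted over all 14300 genes by Benjamini-Hochberg, and an adjusted p under 0.05 was called. A fit with 1 term for each day and number format gave the values by format. Standard errors are the fold change over the root of F. The fits were tested on simulated counts. Log2 CPM used a prior count of 2.

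Members and gene lists were chosen with earlier results of these data known. All members were named, and of the pathway genes the 3 called genes with the highest and the 3 with the lowest fold changes. Others were named after their values were seen, and 1 pathway gene, included in the counts, is not reported here. Alternatives were the unstranded column, RLE factors, total counts, at least 10 counts in every library or no filter, DESeq2 1.42.0, only the 2 days compared, a replicate block, number format as a term or 1 format only, a log2 fold change of at least 1, and leaving out each library. Pairs of replicates had a chi-square of 5.94 to 241 per degree of freedom, so that no library was taken for a repeat of another, which does not show that they are separate mice.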

Additional observations from a re-analysis of the deposited data

Results flagged for a closer look

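Ace in day 0 replicate 4 was at 789 CPM, while the other 3 libraries of day 0 were at 314 to 372 CPM, and its gap to the nearest library was 0.877 of the whole range of the group, above Dixon's critical value for 4 samples. Of the 18 groups of libraries examined (6 members at 3 days) 1 stood out in this way, where 0.9 would be expected by chance, since chance marks about 1 group in 20. The Ace fold changes without this library are -1.28 at day 1 and -1.85 at day 3.

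The effect of the number format differed between day 3 and day 1 for Enpep, by 1.96 on the log2 scale, and for Anpep, by 2.08, each with an adjusted p of 0.00488 in edgeR's test of the difference itself. Enpep was lower in both 3-digit libraries than in the 3 1-digit libraries of day 1, and higher in all 3 3-digit libraries than in both 1-digit libraries of day 3, and the same held for Anpep. The same difference was called higher for 11 of 15 proximal tubule markers (median 2.56). It was also called higher for 3 of 6 other brush border peptidases (median 2.43), and lower for 2 of 6 tubular injury markers (median -2.32). Of all genes tested, 17.6% were called in either direction. What the number format stands for is not given in the sources used here, and its part in the values was not tested.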

How the results depend on the processing

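The number of members changed against day 0 stayed within 4 to 6 under all 14 alternatives, both at day 1 and at day 3. Without any 1 library it stayed within 4 to 5. The percentage of all genes called varied widely across these alternatives. Its lowest and highest values were 20.7% and 58.5% for day 1, and 18.2% and 53.7% for day 3. An equal count of members therefore does not mean the same under each alternative. Between day 3 and day 1 the number of members changed, 0 in edgeR's main test, was 1 with total counts, 3 in 1-digit libraries and 2 in 3-digit libraries, and 0 to 1 without any 1 library (1 without day 1 replicate 2 or day 3 replicate 5). Between formats it was 0 to 3 at day 1 and 0 to 3 at day 3 without any 1 library, being 0 without day 1 replicate 1 (24.6% of all genes called), day 3 replicate 2 (8.26%) or day 3 replicate 5 (0.638%), and 1 without day 1 replicate 2 (14%) or day 3 replicate 3 (8.06%). For the 15 pathway genes, day 1 gave 5 calls, and 3 with total counts (39.8% of all genes called). At day 1 there were 2 with at least 10 counts in every library (43.6%, 13 pathway genes tested) and 9 in 3-digit libraries (41.6%). In the 3-digit libraries 8 remained without day 0 replicate 4, added after seeing the data (37.6%). There were 2 at a log2 fold change of at least 1 (20.7%), and 2 to 6 without any 1 library. Day 3 gave 3 calls, and 6 with DESeq2 (38.7%), 7 in 1-digit libraries (53.7%) and 7 there without day 0 replicate 4 (50.6%). It gave 1 at a log2 fold change of at least 1 (18.2%), and 2 to 6 without any 1 library. Day 3 against day 1 gave 3 calls, and 1 with only these 2 days (6.02%), 7 in 1-digit libraries (32%), and 1 to 4 without any 1 library. Signs turned for Agtr1a between formats at day 1 (0.21 with total counts, 0.00 with at least 10 counts, -0.22 to 0.22 without any 1 library), and between day 3 and day 1 for Mme (-0.01 in 1-digit libraries), Enpep (-0.79 in 1-digit libraries, -0.09 to 0.35 without any 1 library) and Anpep (0.15 with total counts, 0.05 with format as a term, 1.09 in 3-digit libraries, -0.24 to 0.27 without any 1 library). Between formats at day 3, values without any 1 library ran from -0.85 to 0.44 for Agt and from -0.36 to 1.14 for Ace. The causes were not tested. Of 13 same-numbered pairs of libraries from different days, 4 correlated over 0.1 in their deviations from the day means (from -0.17 to 0.26). Pairs with different numbers were not compared, so that this cannot decide whether replicate numbers pair the libraries. With the replicate block the members changed numbered 4 at day 1 (36.1% of all genes called), where Agt had 1.89 (adjusted p = 0.0902, edgeR), 5 at day 3 (28.7%) and 0 between the days (14.3%). Of 756 recomputed fold changes of members 694 kept their direction and side of the threshold. With 4 to 5 libraries a day and 8 to 216 reads on Agt, depth limits Agt most among the tested members, and with at least 10 counts in every library required it gave no value.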
